A study of Homo sapiens with 29 samples.

Results

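The genes described are those of the HOX clusters and their CDX regulators, followed through cardiac differentiation of HuES6, an established human embryonic stem cell line. The members are all probes whose symbol in the platform annotation is HOXA, HOXB, HOXC or HOXD followed by a number, or CDX1, CDX2 or CDX4. This rule uses no measured value. It gave 39 probes for 32 genes, out of 47323 probes on the array, of which 30113 carry 1 gene symbol and name 20046 genes. They are 12 probes for 10 HOXB genes, 13 probes for 9 HOXC genes, 9 probes for 9 HOXD genes, 2 probes for HOXA2 and 1 probe for each CDX gene. Other HOXA genes were not analysed here.

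RNA came from 29 samples, each hybridised to 1 Illumina bead array, in which a probe's brightness reports the amount of its transcript. There was 1 array of undifferentiated cells (day 0), and 4 induction arms were sampled with 1 array on each of days 1, 2, 3, 4, 5, 6 and 8. Letters name the day 0 factors of an arm, F for FGF2, B for BMP4 and W for a WNT pathway activator that the labels call CHIR00921. FBW thus had all 3, while FB was without the activator, BW without FGF2 and FW without BMP4. Insulin was present on day 0 only, and the WNT inhibitor IWP-2 was given for 2 days from day 2, by a protocol worded alike for every sample. The comparisons ask how leaving out 1 of the 3 factors changes the HOX and CDX genes.

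All cells are of 1 line, and no label names a second differentiation of any arm. In tests between arms, days stand in for replicates, so a p measures how steady a difference was over neighbouring days and not the spread between separate differentiations. According to the labels, 2 FBW arrays (days 3 and 6) also belong to another series, and FBW is the reference of each comparison between arms. The arrays detected between 16218 and 18796 probes, or 34.3% to 39.7%, at a detection p under 0.01, and the number of arrays limits the precision. On day 0 all 6 pluripotency markers with a probe were detected, with POU5F1 at 11.50 and NANOG at 10.36, while 1 of 7 heart markers was.

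HOX genes encode homeodomain transcription factors that give cells their position along the body axis. They lie in 4 clusters, and in the embryo genes at the 3′ end of a cluster (low paralog numbers) come on earlier and reach further forward than those at the 5′ end (high numbers). CDX proteins are homeodomain factors of the posterior embryo that act downstream of WNT signals and switch on central and posterior HOX genes. CDX2 is also needed in trophectoderm and intestine. In the heart field, retinoic acid and the anterior HOX genes mark the progenitors nearest the inflow end.

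Of the 39 probes, 18 were detected on at least 1 of the 29 arrays, 13 on at least 3 arrays, and 21 on none. By gene, 15 of 32 were detected at least once and 17 never. All 3 CDX genes and HOXA2 were detected. In the HOXB cluster 9 of 12 probes were detected, for HOXB2, HOXB3, HOXB4, HOXB5, HOXB6, HOXB7 and HOXB8, while HOXB1, HOXB9 and HOXB13 were never above background. In the HOXC cluster 3 of 13 probes were detected, for HOXC4, HOXC6 and HOXC13, and HOXC5, HOXC8, HOXC9, HOXC10, HOXC11 and HOXC12 were not. In the HOXD cluster 1 of 9 probes was detected, HOXD3, on a single array, and HOXD1, HOXD4, HOXD8, HOXD9, HOXD10, HOXD11, HOXD12 and HOXD13 were not. A probe not above background has no measured level, and a low transcript can be missed.

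The detections were unevenly spread over the arms. Counting each probe on each array, HOXB probes were detected 31 times out of 84 in FBW, 12 out of 84 in BW, 7 out of 84 in FB and 6 out of 84 in FW. HOXA2 probes were detected 10 times out of 14 in FBW, once in BW and never in FB or FW. HOXC probes, by contrast, were detected at a like rate everywhere, with 9, 11, 11 and 9 of 91 in FBW, FB, BW and FW. The number of HOXB probes detected in FBW was 1, 2, 3, 6, 5, 8 and 6 on days 1, 2, 3, 4, 5, 6 and 8. CDX probes ran the other way in time, with 2 of 3 detected on each of days 1, 2 and 3 in FBW and 0 from day 4 on. FBW day 6, with the most HOXB probes, was also the array that detected the most probes of all kinds.

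**Figure D1:**
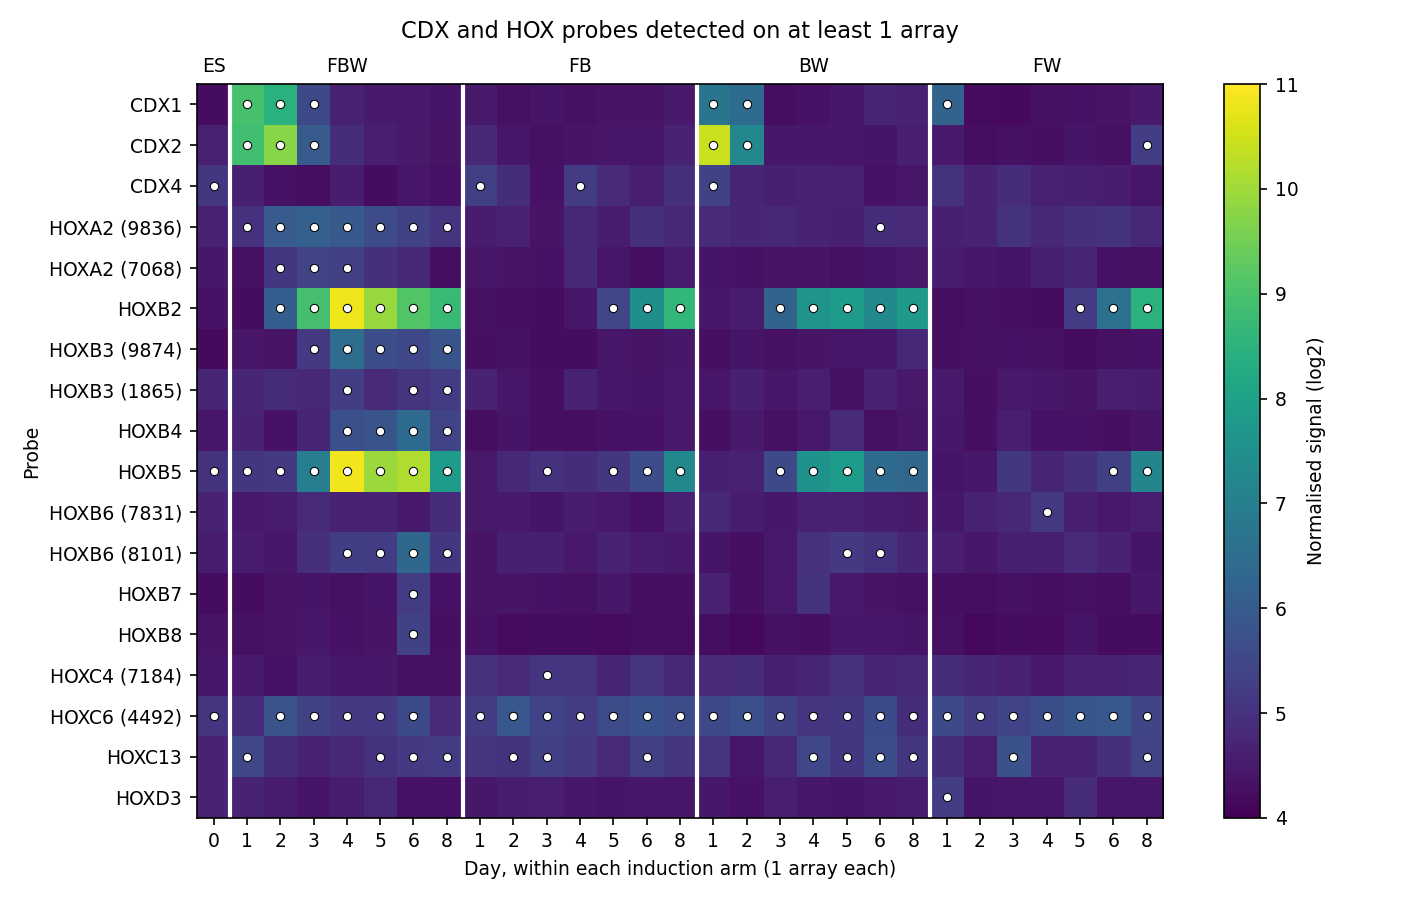
Normalised log2 signal (colour) of the 18 CDX and HOX probes detected on at least 1 array, in rows, on the 29 arrays, in columns ordered by arm and day. White dots mark detection at p under 0.01, and a number after a symbol gives the last digits of the probe name where a gene has several probes. Bright cells are CDX1 and CDX2 on days 1 and 2 of FBW and BW, and HOXB2 and HOXB5 from day 3 on, with HOXA2, HOXB3 and HOXB4 dim and almost entirely in FBW.

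**Figure D2:**
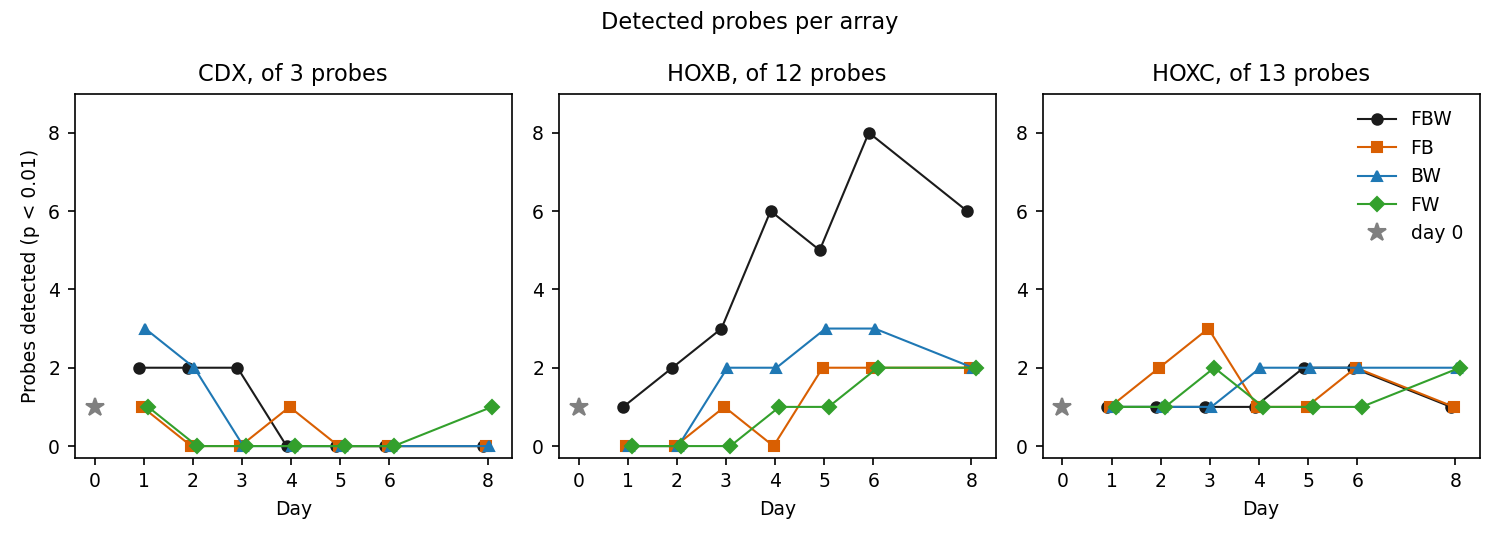
Number of probes detected per array (vertical axis) against day, for the CDX genes, the HOXB cluster and the HOXC cluster, with 1 line per arm and a star for day 0. In FBW the HOXB count reaches 8 of 12 on day 6, and in FB and FW it does not pass 2.

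Sequences are shown for CDX2 and for HOXA2, the earliest members of the FBW course that have an entry in the table of promoters used here. Of the 32 member genes, 14 matched an entry in RefSeq's promoter table (GRCh38.p14, a window around the start of each gene), in which HOXC4 and HOXC5 share 1 window. CDX2 lies at chr13:27969266-27969565 and HOXA2 at chr7:27102634-27102933, both on the minus strand and both printed 5′ to 3′ along the gene. In the HOXA2 window capitals mark matches to 2 motifs, first the HOX and PBX motif TGATTNAT on the opposite strand and then the MEIS motif TGACAG.
CDX2: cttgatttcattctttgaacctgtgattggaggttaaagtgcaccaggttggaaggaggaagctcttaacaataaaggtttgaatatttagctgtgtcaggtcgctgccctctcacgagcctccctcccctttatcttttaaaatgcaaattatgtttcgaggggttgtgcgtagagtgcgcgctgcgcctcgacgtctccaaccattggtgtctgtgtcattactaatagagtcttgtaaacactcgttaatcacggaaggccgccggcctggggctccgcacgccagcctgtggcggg
HOXA2: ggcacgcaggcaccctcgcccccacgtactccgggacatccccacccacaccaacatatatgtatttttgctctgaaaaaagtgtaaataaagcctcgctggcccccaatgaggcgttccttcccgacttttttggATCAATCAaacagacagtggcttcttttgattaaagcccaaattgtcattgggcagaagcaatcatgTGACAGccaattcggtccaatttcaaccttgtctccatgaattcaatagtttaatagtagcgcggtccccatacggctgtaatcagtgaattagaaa

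Each window was searched on both strands for 5 motifs. TGATTNAT was present in 2 of the 14 member windows (HOXA2 and HOXD11) and in 2.82% of 35116 promoters of the same length. TGACAG was present in HOXA2 and HOXD4, against 15.8% of all promoters. The CDX motif TTTATG was present in 1 member window, that of HOXD8, against 10.6%. CTTTGAT, bound by the TCF and LEF factors of the WNT pathway, and the retinoid response element DR5 were present in 0 of 14, against 2.62% and 0.0057%. These are letter matches only, and none of the letters searched is in the CDX2 window.

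CDX1 and CDX2, factors of the posterior embryo, were high for the first days of FBW and then gone. Signals are given on the normalised log2 scale, and folds are linear. CDX1 was 4.24 on day 0, not above background, and in FBW it was 8.97, 8.46 and 5.55 on days 1, 2 and 3, then 4.64, 4.50, 4.48 and 4.40 on days 4, 5, 6 and 8. Only the first 3 of these FBW days were above background, and day 1 was at least 16.4-fold above day 0. In BW it was 6.72 and 6.44 on days 1 and 2, in FW 6.22 on day 1, and in FB it was detected on no day, at 4.31 to 4.52. The highest value outside FBW lay below that of FBW on days 1 and 2.

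CDX2, the CDX factor shared by trophectoderm, tail bud and gut, was 4.65 on day 0, also not above background. In FBW it was 8.89, 9.75 and 6.02 on days 1, 2 and 3 and not detected later, at 4.37 to 4.92. In BW it was 10.45 and 7.23 on days 1 and 2 and not detected later, at 4.40 to 4.58. The highest CDX2 signal of all 29 arrays was thus in BW on day 1, without FGF2, where the raw signal was 1513 against 559 in FBW. It was at least 46.0-fold above day 0 there, and at least 28.2-fold in FBW on day 2. In FB no array detected CDX2, at 4.32 to 4.79, and in FW 1 array did, day 8 at 5.27. Without the WNT activator neither of these CDX genes was detected. Without BMP4, CDX1 was detected on day 1 only and CDX2 on day 8 only.

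The third gene, CDX4, a posterior factor whose gene lies on the X chromosome, showed no such wave. It was detected on 4 arrays close to background, at 5.10 on day 0, 5.33 and 5.25 in FB on days 1 and 4, and 5.37 in BW on day 1. In FBW it was detected on no day, at 4.24 to 4.63. Its raw signal stayed between 88.6 and 125 over all arrays.

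Markers of other cell types that use CDX2 are given beside these values. Of 11 markers of trophoblast, amnion and surface ectoderm, 8 were detected in BW on days 1 to 3, with a summed linear signal of 1727 to 3977, against 4 in FBW, with 373 to 973, and 6 in FB, where CDX2 was at background, with 497 to 1215. Of 7 such genes tested, 1 was called higher in BW than in FBW, against 0.283% of all 19050 probes called. It was TFAP2C, by 2.58 ± 0.25 (adjusted p = 0.0281 by limma), and the median difference of the 7 was 1.69. CGA, CGB5 and ELF5 were not detected in BW in that window. Of 8 markers of hindgut and intestine, CDH17, FABP1 and MUC2 were not detected in any group. The list summed to 361 to 1622 in BW on days 1 to 3, with 3 genes detected, and to 300.1 to 653 in FBW, with 4. Of 4 tested, 0 were called in BW by limma, against the same 0.283% of all probes, with a median difference of 0.92. The part of other cell types in the CDX2 signal was not tested, and in RNA from a mixed culture fewer cells of a type and less RNA per cell cannot be told apart.

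The anterior HOX genes followed in FBW. HOXA2, which patterns the hindbrain and its neural crest, was 4.65 on day 0 and 5.01, 6.00, 6.15, 5.95, 5.61, 5.37 and 5.07 on days 1, 2, 3, 4, 5, 6 and 8 of FBW, detected on each. It was dim at its highest, at least 2.34-fold above day 0. Outside FBW it was detected on 1 of 21 arrays, BW day 6 at 4.93. A second HOXA2 probe was detected on FBW days 2, 3 and 4, at 5.15, 5.42 and 5.33, and nowhere else.

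HOXB2, an anterior gene of the HOXB cluster also known from the hindbrain, came on strongly. In FBW it was 4.24 on day 1, not detected, and 6.08, 8.95, 10.82, 9.92, 9.10 and 8.72 on days 2, 3, 4, 5, 6 and 8. Day 4 was at least 59.2-fold above day 0 (4.35, not detected), with a raw signal of 1963. In BW it was first detected on day 3 at 6.24 and then stayed at 7.62, 7.85, 7.32 and 7.78 on days 4, 5, 6 and 8. FB and FW came later still. In FB it was not detected up to day 4 and then 5.49, 7.48 and 8.64 on days 5, 6 and 8. In FW the same days gave 5.21, 6.64 and 8.46. On day 8 the arms were thus much closer to each other than on day 4, when FB was 4.43 and FW 4.24, neither above background.

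HOXB5, a central gene of the cluster, was dimly detected on day 0 at 5.02 and was 5.14, 5.18, 6.99, 10.84, 9.94, 10.17 and 7.87 on days 1, 2, 3, 4, 5, 6 and 8 of FBW. The rise of 5.82 over day 0 on day 4 corresponds to a raw signal of 1999. In BW it was 5.54, 7.57, 7.83, 6.46 and 6.31 on days 3, 4, 5, 6 and 8. In FB it was 4.99 on day 3 and 5.10, 5.66 and 7.27 on days 5, 6 and 8, and in FW it was 5.32 and 7.18 on days 6 and 8. As for HOXB2, the FB and FW values were highest on day 8.

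HOXB3 and HOXB4, which lie between these genes in the cluster, were detected in FBW and in no other arm. HOXB3 has 2 probes of nearly equal mean over the arrays. Its probe of highest mean was 4.72 on day 0 and was detected on FBW days 4, 6 and 8, at 5.28, 5.06 and 5.22, with day 5 at 4.85 below the limit. The other HOXB3 probe was 5.16, 6.52, 5.67, 5.50 and 5.82 on days 3, 4, 5, 6 and 8 of FBW, and at most 4.80 in the other arms (BW day 8). HOXB4, known for its use in expanding blood stem cells, was 5.70, 5.83, 6.44 and 5.43 on days 4, 5, 6 and 8 of FBW and at most 4.82 elsewhere (BW day 5). HOXB6, a central gene, was 5.29, 5.23, 6.35 and 5.14 on the same days of FBW, and in BW 5.19 and 5.02 on days 5 and 6. Another HOXB6 probe was detected on 1 array only, FW day 4 at 5.17, so the 2 probes disagree.

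The neighbouring genes HOXB7 and HOXB8 were detected on a single array each, FBW day 6, at 5.22 and 5.37. That array is among those shared with another series, and its signal for HOXB4 and HOXB6 was also the highest of the arm. By paralog number, the first FBW day of detection was day 1 for HOXA2, day 2 for HOXB2, day 3 or 4 for HOXB3 by probe, day 4 for HOXB4 and HOXB6, and day 6 for HOXB7 and HOXB8. HOXB5, HOXC6 and HOXC13 depart from this order, and HOXB1 and HOXD1, of the lowest HOX paralog number here, were never detected. HOXB5 and HOXC6 were already dimly detected on day 0, and HOXC13 was first detected in FBW on day 1. The order describes 1 time course and is set by the detection limit.

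**Figure D3:**
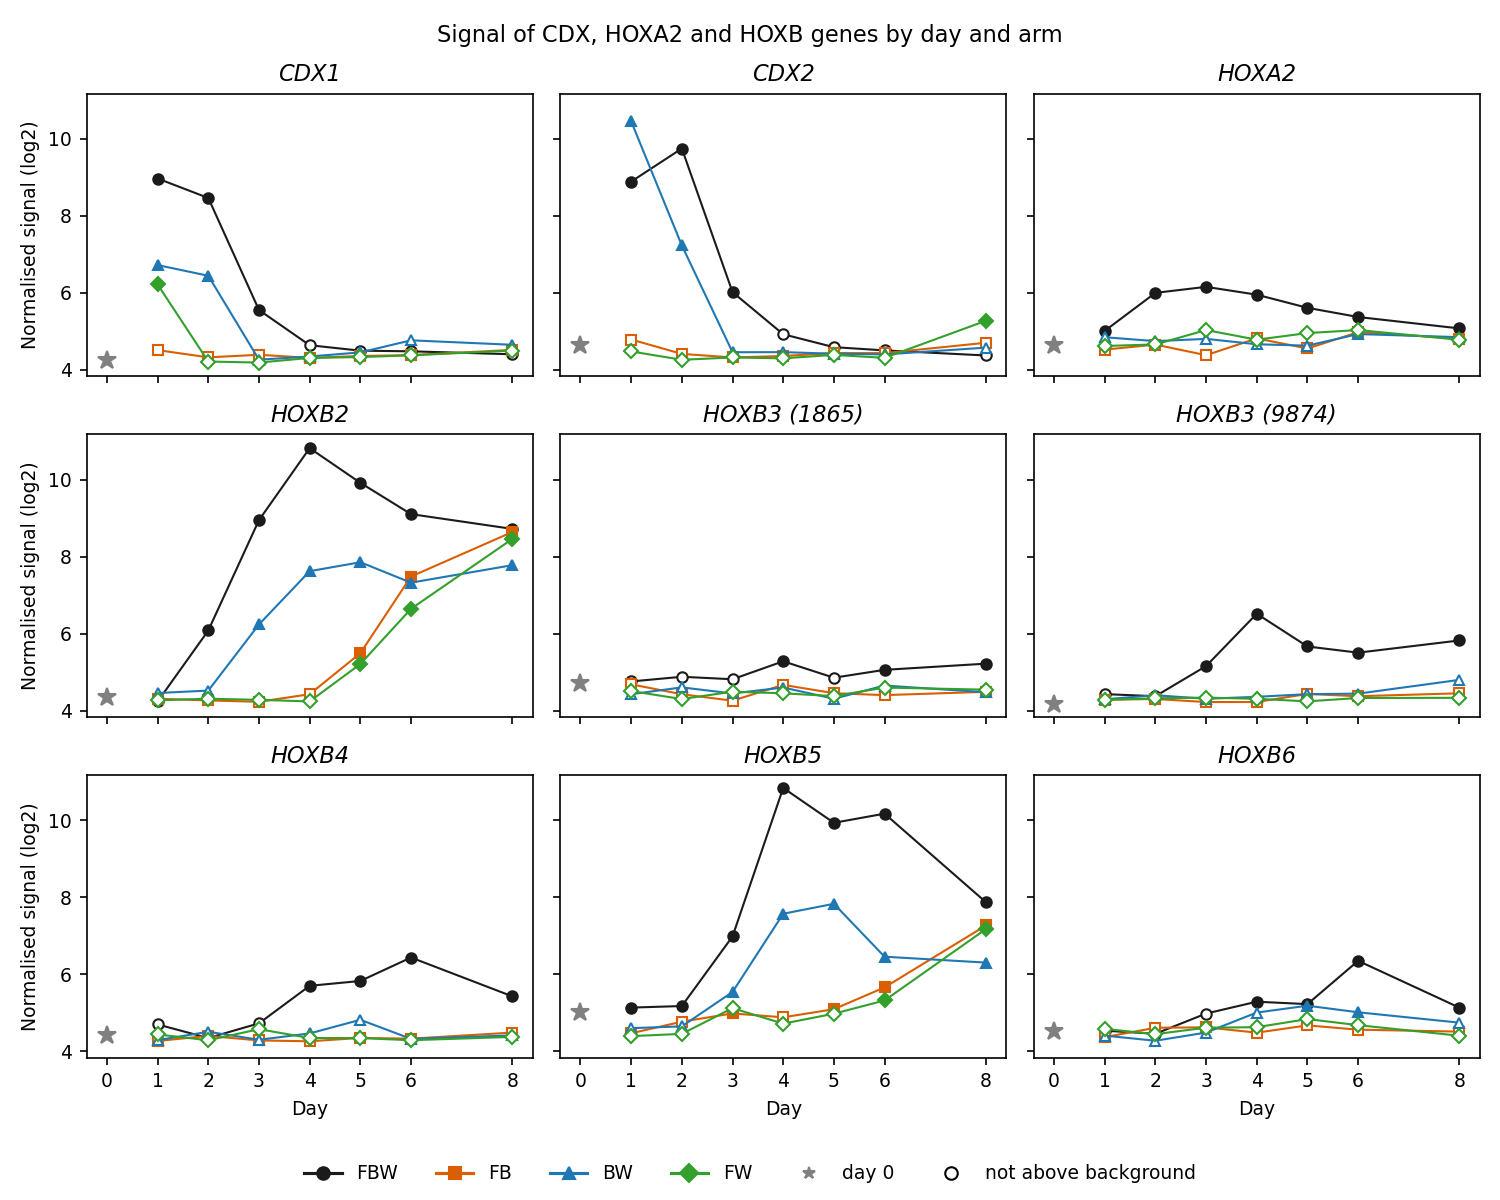
Normalised log2 signal against day for CDX1, CDX2, HOXA2 and the HOXB genes detected on at least 3 arrays, with 1 line per arm, a grey star for day 0 and a panel for each HOXB3 probe, named by the last digits of the probe. Filled symbols are detected values and open symbols values not above background (the day 0 star is always filled, and of these genes only HOXB5 was detected on day 0). CDX1 and CDX2 peak on days 1 and 2, HOXB2 and HOXB5 on day 4 of FBW, and the FB and FW lines of both rise by day 8.

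The HOXC and HOXD clusters showed little signal. HOXC6, a thoracic gene, was detected on 27 of 29 arrays by 1 of its 4 probes, at raw signals of at most 148 and normalised values of 4.83 to 5.92. Its other 3 probes were never detected, so its presence rests on 1 dim probe. HOXC13, the last gene of its cluster, was detected on 13 arrays from all 4 arms at 4.44 to 5.74 over all arrays. HOXC4 was detected on FB day 3 only, at 5.08, by 1 of 2 probes, and HOXD3 on FW day 1 only, at 5.26. In BW, HOXC13 was detected on 0 of 3 days in days 1 to 3 and on 4 of 4 in days 4 to 8. It was higher there by at least 1.22-fold without overlap, but was not called (adjusted p = 0.143 by limma). In FBW none of these genes had the early or late wave seen for CDX1, CDX2 and the HOXB genes.

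On days 1 to 3, CDX1 and HOXA2 were lower in FB and CDX1 and HOXB5 in FW than in FBW. Differences come from limma fits with day as a block, and a call is a Benjamini-Hochberg adjusted p under 0.05 over all probes tested. In FB 2 of the 7 member probes tested were lower, against 2.89% of all 19050 probes tested called in either direction. CDX1 differed by -3.25 ± 0.59 (SE, 3 days against 3, adjusted p = 0.0349 by limma), which is at least 6.16-fold since FB was at background. HOXA2 differed by -1.20 ± 0.24 (adjusted p = 0.0408 by limma), at least 1.61-fold. Both were lower on 3 of 3 days, with ranges that did not overlap. Probes were tested where detected on at least 3 arrays of a fit. HOXA2 was detected in this window in FBW only, so this filter set the direction of its difference. CDX2 differed by -3.71 ± 0.99, at least 9.06-fold, and missed the threshold with an adjusted p of 0.0622 by limma. CDX2 also passed the filter only through the FBW arrays.

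With FW 2 of 7 member probes were lower, against 4.37% of all probes. CDX1 differed by -2.79 ± 0.59 (adjusted p = 0.0429 by limma), with overlapping ranges because of FW day 1, and HOXB5 by -1.11 ± 0.26 (adjusted p = 0.0488 by limma), at least 1.65-fold. CDX2 differed by -3.86 ± 0.99 and HOXA2 by -0.95 ± 0.24, with adjusted p of 0.0552 and 0.0547 by limma. HOXB5, CDX2 and HOXA2 passed the filter only through the FBW arrays and were not detected in FW in this window. The filter thus set the direction of these differences. Without the FBW arrays of days 3 and 6, 0 members were called in FB and 0 in FW, and the calls of the whole array fell to 11 in each.

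With BW 0 of 7 member probes were called by limma in days 1 to 3, against 0.283% of all probes. At an unadjusted p under 0.05 by limma there were 3 of 7 members, and 2610 of all 19050 probes. CDX1 differed by -1.85 ± 0.59 (adjusted p = 0.220 by limma), lower on 3 of 3 days. CDX2 differed by -0.84 ± 0.99 (adjusted p = 0.747 by limma), higher than FBW on day 1 and lower on days 2 and 3. Because FBW is the common reference, its arrays enter the differences of FB, BW and FW alike.

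In days 4 to 8 HOXB3, HOXB4, HOXB5 and HOXA2 were lower in all 3 arms that lacked a factor, and HOXB2 and HOXB6 were lower in FB and FW. HOXB5 was 9.71 ± 1.28 in FBW (SD over 4 days), 7.04 ± 0.77 in BW, 5.73 ± 1.08 in FB and 5.55 ± 1.11 in FW. It differed from FBW by -3.98 ± 0.74 in FB, by -4.16 ± 0.74 in FW and by -2.66 ± 0.74 in BW (SE, 4 days against 4, adjusted p = 0.000793, 0.000511 and 0.0207 by limma). In each arm it was lower on 4 of 4 days without overlap. HOXB5 was not above background on FB day 4 and FW days 4 and 5, so no fold is given for these arms, and in BW, detected on all 4 days, it was 6.33-fold lower. In BW the call was lost without day 4, 5 or 6, or without the FBW arrays of days 3 and 6.

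HOXB2 differed by -3.13 ± 0.84 in FB and by -3.50 ± 0.84 in FW (adjusted p = 0.00788 and 0.00365 by limma), with day 4 of both arms not above background. In BW the difference was -1.99 ± 0.84, with an adjusted p of 0.0993, although all 4 days were lower. Without day 5 the FB call was lost as well, at an adjusted p of 0.0724 by limma. Within the window the FB and FW values were highest on day 8 and the FBW values lowest.

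HOXB3 and HOXB4 were not above background in FB, BW or FW on any of these days. They were tested only because FBW detected them, so the filter set the direction of their differences. Their calls add no separate support for it. HOXA2 and HOXB6 likewise needed the FBW arrays to be tested. The HOXB3 probe of highest mean differed from FBW by -0.60 ± 0.10, -0.59 ± 0.10 and -0.61 ± 0.10 in FB, BW and FW (adjusted p = 0.000382, 0.00149 and 0.000282 by limma), a bound of at least 1.10-fold in BW and 1.01-fold in FW and none in FB. The other HOXB3 probe was lower by at least 1.67-fold, 1.87-fold and 1.73-fold, with fitted differences of -1.51 ± 0.18, -1.37 ± 0.18 and -1.58 ± 0.18. HOXB4 was lower by at least 1.64-fold, 1.84-fold and 1.70-fold, with fitted differences of -1.49 ± 0.17, -1.34 ± 0.17 and -1.51 ± 0.17. The largest adjusted p of that probe and of HOXB4 was 0.000286 by limma. HOXB6 was lower in FB and FW, by -0.94 ± 0.19 and -0.86 ± 0.19 (adjusted p = 0.00132 and 0.00205 by limma), at least 1.29-fold and 1.33-fold since neither arm was above background. In BW it differed by -0.51 ± 0.19 with an adjusted p of 0.0639. HOXA2 was lower in FB, BW and FW by -0.71 ± 0.16, -0.74 ± 0.16 and -0.61 ± 0.16 (adjusted p = 0.00293, 0.00654 and 0.00636 by limma). That is at least 1.29-fold in FB and 1.33-fold in FW, with no day above background there and 1 of 4 in BW, where the call was lost without day 5 (adjusted p = 0.0685 by limma).

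HOXC6 went the other way, at 0.35 ± 0.12 higher in FB and 0.54 ± 0.12 in FW (adjusted p = 0.0295 and 0.00257 by limma), with overlapping ranges. The FB call was lost without day 5, 6 or 8 and with no day block, at adjusted p up to 0.209 by limma. In BW it differed by -0.04 ± 0.12. HOXC13 was called in no arm, with differences between -0.11 and 0.29. In all, 8 of 9 member probes tested were called in FB, 5 in BW and 8 in FW. Both HOXB3 probes and HOXB4 are among these calls in each arm, with their direction set by the filter. HOXA2 in each arm, and HOXB6 in FB and FW, also passed the filter only through FBW, so it set their direction too. The background is broad in this window, with 52.1%, 25.8% and 56.3% of 20044 probes called in FB, BW and FW, so the counts in FB and FW stand in a window in which a large share of all tested probes was called. The median over all probes tested was 0.05 in FB, 0.00 in BW and 0.05 in FW.

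**Figure D4:**
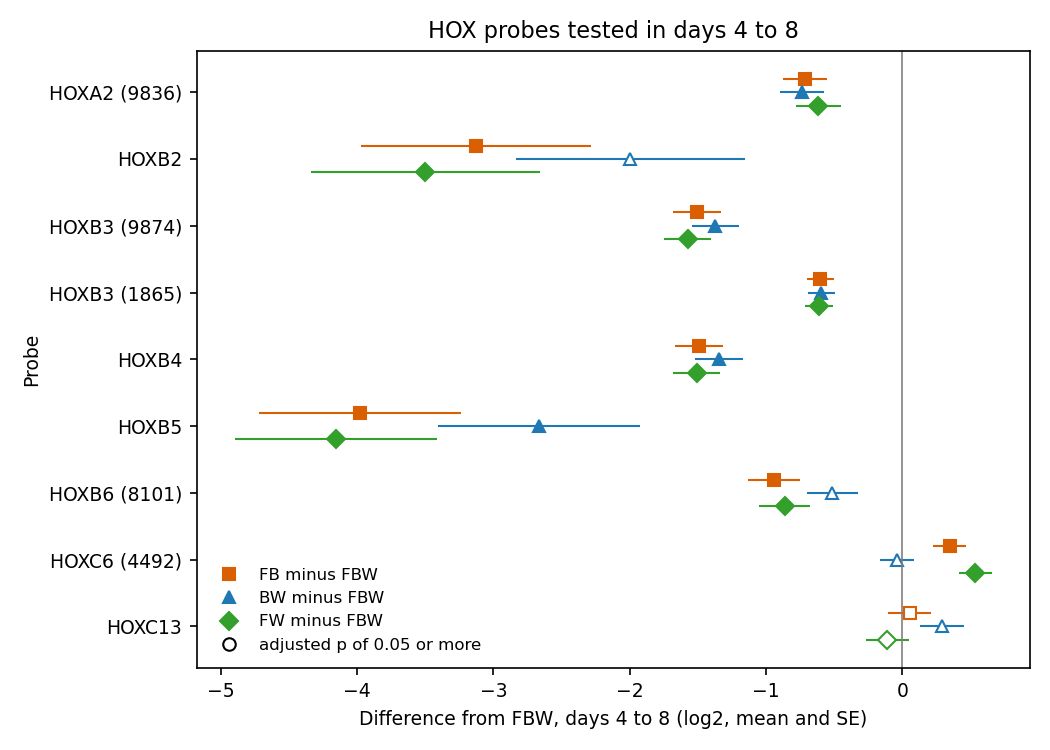
Difference from FBW on days 4 to 8 (horizontal axis, log2, mean and SE of the fit) for the 9 member probes tested, with 1 symbol per arm. Filled symbols have an adjusted p under 0.05. HOXB5 in FB and FW lies near -4, HOXA2, HOXB3, HOXB4 and HOXB6 lie between -0.51 and -1.58 with the arm at or near background, and HOXC6 in FB and FW lies above 0.

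Within FBW, 7 of 13 member probes changed between days 1 to 3 and days 4 to 8, against 26.6% of 21460 probes. HOXB5 rose by 3.94 ± 0.66, HOXB2 by 3.22 ± 0.96, HOXB4 by 1.26 ± 0.16 and HOXB6 by 0.84 ± 0.20 (adjusted p = 0.000316, 0.0170, 2.4e-05 and 0.00413 by limma). For HOXB3 the probes disagree, since the one of highest mean differed by 0.29 ± 0.12 and was not called (adjusted p = 0.0697 by limma) and the other rose by 1.22 ± 0.18 (adjusted p = 9.88e-05 by limma). CDX1 fell by 3.16 ± 0.58 and CDX2 by 3.62 ± 0.82 (adjusted p = 0.000688 and 0.00309 by limma), at least 6.35-fold and 9.34-fold. The HOXB2 call was lost without day 1, 2 or 5. HOXB4 and the HOXB3 probe of highest mean were detected in the later window of FBW only, so the filter set their direction. HOXB6 and the other HOXB3 probe also passed the filter only through the later FBW arrays, so it set theirs too. HOXA2 and CDX4 differed by -0.22 ± 0.21 and -0.02 ± 0.19 between the windows.

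In BW 1 of 13 member probes changed, against 3.37% of all probes. CDX2 fell by 2.92 ± 0.82 (adjusted p = 0.0492 by limma), at least 5.31-fold, and this call was lost without any 1 day other than day 3. HOXB5 and HOXB2 differed by 2.11 ± 0.66 and 2.57 ± 0.96 (adjusted p = 0.0663 and 0.112 by limma). In FB 0 of 13 member probes were called by limma, against 2.33% of all probes, and in FW 0, against 1.64%. At an unadjusted p under 0.05 by limma there was 1 member in FB, and 4682 of all 21460 probes. In FW there were 0 members and 4055 probes.

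Whether an arm's difference from FBW changed between the windows was tested as an interaction, a comparison added after the data were seen. In FB 3 of 13 member probes were called, against 2.19% of all probes, and in FW 2 were, against 2.69%. In BW 0 members were called by limma, against 0.0559% of all probes. At an unadjusted p under 0.05 by limma there were 3 of 13 members, and 1786 of all 21460 probes. HOXB4 was called in FB and FW, at -1.22 ± 0.23 and -1.35 ± 0.23 (adjusted p = 0.00544 and 0.00191 by limma). The HOXB3 probe of highest mean gave -0.24 and -0.23 and was not called (adjusted p = 0.476 and 0.466 by limma), while the other gave -1.12 ± 0.25 and -1.24 ± 0.25 (adjusted p = 0.0210 and 0.00934 by limma). CDX1 in FB gave 3.14 ± 0.82 (adjusted p = 0.0438 by limma).

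HOX proteins bind DNA together with TALE homeodomain cofactors, the PBX, MEIS and PKNOX proteins. Of 9 such genes tested, 7 were lower and 1 higher in FB on days 4 to 8, 7 lower and 1 higher in FW, and 3 lower and 1 higher in BW, where 52.1%, 56.3% and 25.8% of all probes tested were called in FB, FW and BW. The median differences were -1.43, -1.56 and -0.43. PBX3 was 13.30, 12.54, 12.36 and 11.99 on days 4, 5, 6 and 8 of FBW and between 9.22 and 9.55 in FB. It differed by -3.15 ± 0.17 in FB, -2.01 ± 0.17 in BW and -3.18 ± 0.17 in FW (adjusted p = 7.19e-08, 1.44e-05 and 5.45e-08 by limma), and MEIS3 by -1.91 ± 0.17, -0.84 ± 0.17 and -1.82 ± 0.17. In days 1 to 3 0 of the 9 were called by limma in any arm, against 2.89%, 0.283% and 4.37% of all probes in FB, BW and FW. Within FBW 4 of the 9 rose and 1 fell between the windows, against 26.6% of all probes called. MEIS2 rose by 3.51 ± 0.86 (adjusted p = 0.00537 by limma) and PBX3 by 1.87 ± 0.45.

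Retinoic acid switches on anterior HOX genes, and CYP26A1 degrades it. Of 13 retinoid pathway genes tested on days 4 to 8, 4 were higher and 4 lower in FB, 3 higher and 1 lower in BW, and 3 higher and 4 lower in FW, shares near the 52.1%, 25.8% and 56.3% of all probes. CYP26A1 was 8.48, 6.40, 5.25 and 5.47 on days 4, 5, 6 and 8 of FBW and between 10.70 and 12.85 in FB. Its differences were 5.63 ± 0.45 in FB, 4.66 ± 0.45 in BW and 5.72 ± 0.45 in FW (adjusted p = 1.37e-06, 3.04e-05 and 1.02e-06 by limma). DHRS3, which limits retinoic acid production, was higher by 1.81 ± 0.23, 1.41 ± 0.23 and 2.01 ± 0.23, and the receptor RARA lower by -1.29 ± 0.18, -0.81 ± 0.18 and -1.17 ± 0.18. In days 1 to 3, of 10 tested, 1 was lower in FB, CRABP2 by -1.43 ± 0.30, 0 were called in BW by limma, and 1 was higher and 1 lower in FW. Of all probes 2.89%, 0.283% and 4.37% were called in FB, BW and FW.

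Of 10 streak and posterior axis genes tested on days 1 to 3, 4 were lower in FB, 5 in FW and 0 in BW by limma, and 0 were higher, against 2.89%, 4.37% and 0.283% of all probes. The WNT ligand WNT8A was not detected in FB or FW and was lower there by at least 6.24-fold and 6.21-fold, while WNT5B differed by -2.94 ± 0.48 and -2.80 ± 0.48. TBXT, the streak factor, was at least 30.5-fold lower in FBW on days 4 to 8 than on days 1 to 3 (adjusted p = 0.00161 by limma), in the window in which CDX1 and CDX2 were not detected either. Of 18 Polycomb and trithorax genes, whose products keep HOX genes off or on, 5 were higher and 7 lower in FB on days 4 to 8, 2 higher and 5 lower in BW, and 5 higher and 7 lower in FW, against 52.1%, 25.8% and 56.3% of all probes. Among them KDM6A, a demethylase of the Polycomb mark, was lower by -1.09 ± 0.14, -0.87 ± 0.14 and -1.25 ± 0.14.

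Of 20 further transcripts of the HOX clusters listed, 5 had a probe, and HOTAIR and HOXA11-AS were not detected in any group. PRAC1, which lies beside HOXB13, was 5.47, 6.34 and 5.13 on days 1, 2 and 3 of FBW and 6.03 on BW day 2, and was detected on no other array. It was lower in FB and FW on days 1 to 3 by at least 1.53-fold and 1.52-fold (adjusted p = 0.0499 and 0.0485 by limma) and fell within FBW by at least 1.57-fold, while HOXB13 itself was never detected. PRAC1 was tested only because the early FBW arrays detected it, so the filter set the direction of these differences. PRAC2 was detected once, on FBW day 2 at 5.21. HOTTIP, from the 5′ end of the HOXA cluster, was close to background, with 4 detections. The homeobox genes EVX1, EVX2, GSX2 and PDX1 were never detected, and GSX1 was on 2 BW arrays.

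Other cell types moved with the arms in the window in which the HOXB genes differed. On days 4 to 8 all 7 heart markers were detected in FBW and in BW, with a summed linear signal of 12423 to 59882 and 10745 to 45837, and 5 in FB and FW, with 1489 to 12206 and 647 to 11193. Endothelium and blood markers were detected for 7 of 9 genes in FBW and BW and for 2 in FB and FW, where KDR, CDH5, PECAM1, TAL1, HBE1, HBZ and GATA1 were not detected. Trophoblast, amnion and surface ectoderm markers had summed signals of 740 to 2472 in FBW, 5051 to 17360 in FB, 5038 to 9744 in BW and 3786 to 15240 in FW. Pluripotency markers summed to 440 to 1064 in FBW, 1326 to 6341 in FB, 1303 to 3494 in BW and 1541 to 7312 in FW. Of 6 hindbrain, spinal cord and neural crest markers with a probe, NES and SOX10 were detected in every group, with the list summing to 646 to 1138 in FW, 663 to 1935 in FBW, 752 to 1023 in FB and 914 to 1258 in BW on days 4 to 8. PAX3, PAX6 and SOX1 were not detected in any group, and OLIG2 only in BW on days 1 to 3. The part of these cell types in the HOXB differences was not tested.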

How the data were processed

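Each of 29 samples was hybridised to 1 Illumina bead array. The deposited raw table holds non-normalized probe intensity values per array with a detection p-value for each, exported by the authors from GenomeStudio per the submitters' processing notes. A second deposited table holds the authors' processed intensity values and was used as an alternative only.

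Raw intensities were normalised with neqc in limma 3.58.1 (R 4.3.3, offset 16, negative controls inferred from the detection p-values). A probe was detected at a detection p under 0.01 and tested where detected on at least 3 arrays of a fit. Arms were compared on days 1 to 3 and days 4 to 8 with day as a block, and the windows within each arm in a fit of 28 arrays. Calls are Benjamini-Hochberg adjusted p-values under 0.05 over all probes tested. A fold written as "at least" sets the detected arm against the higher of the other arm's own signal and the lowest detected signal, per array. Differences between windows, and fits without the FBW arrays of days 3 and 6, were added after seeing the data.

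Other alternatives were the authors' processed values, quantile normalisation without background correction, 1 probe per gene, no day block, a filter of 1 array and each day left out.

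The members and the gene lists (TALE cofactors, other transcripts of the HOX clusters, homeobox genes beside them, retinoid, Polycomb and trithorax, posterior axis, and 6 sets of cell type markers) were chosen with earlier results of these data known. Members detected on at least 3 arrays are named with values through their probe of highest mean, and of each list at most 3 called genes of lowest adjusted p per comparison. Probe names come from the platform annotation.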

Additional observations from a re-analysis of the deposited data

Results flagged for a closer look

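In 5 cases the difference of an arm from FBW itself differed between days 1 to 3 and days 4 to 8, by an interaction term in limma. For CDX1 in FB the difference moved by 3.14 ± 0.82 (adjusted p = 0.0438), from FBW well above FB to both at background, and 7 of 12 alternatives kept the call. For 1 of the 2 HOXB3 probes the move was -1.12 in FB, kept by 6 of 11 alternatives, and -1.24 in FW, kept by 9 of 11. The HOXB3 probe of highest mean was not called, at -0.24 in FB and -0.23 in FW (adjusted p = 0.476 and 0.466 by limma). For HOXB4 it was -1.22 in FB, kept by 11 of 12 and lost without day 2, and -1.35 in FW, kept by 12 of 12. HOXB3 and HOXB4 were not above background in FB or FW in either window, so these terms repeat the FBW course of each gene against a background level.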

How the results depend on the processing

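Of 413 alternative values for 42 differences of single probes, 366 kept their direction and their side of the threshold, 39 lost a call, 4 gained one and 4 reversed. The late lower calls of HOXB3 and HOXB4 in all arms, and of HOXB5, HOXB6 and HOXA2 in FB and FW, were kept under every alternative in which the probe was tested. So were the FBW changes of CDX1, CDX2, HOXB4, HOXB5 and HOXB6. For HOXB3 and HOXB4, detected in FBW only, the filter set the direction under these alternatives too. HOXA2 and HOXB6 also needed the FBW arrays to be tested, except under the filter of 1 array. With 1 probe per gene the FBW members called higher were 4 and not 5, since HOXB3 was then read by the probe that missed the threshold (adjusted p = 0.0701). Member probes called on days 1 to 3 in FB (2) were 0 with 1 probe per gene or without the FBW arrays of days 3 and 6, 1 with no day block or quantile normalisation, and 0 to 4 with a day left out. The same count in FW (2) was 0 under each of these 4 alternatives and 0 to 4 with a day left out. On days 4 to 8 the BW count (5) was 3 without the FBW arrays of days 3 and 6 and 3 to 6 with a day left out. Within BW the count between windows (1) was 2 with the authors' processed values or without those FBW arrays, 0 with quantile normalisation or a filter of 1 array, and 0 to 3 with a day left out. Within FB (0) it was 0 to 1. With a day left out, the CDX2 difference of BW from FBW on days 1 to 3 ran from -2.04 to 0.0027, reversing without day 2, CDX4 within FB from -0.21 (without day 3) to 0.16, CDX1 within FW from -0.84 to 0.18 (without day 1), and CDX2 within FW from -0.021 (without day 8) to 0.30. Over all probes, days 1 to 3 gave 54 calls in BW (0 to 554 with a day left out, 0 without those FBW arrays), 551 in FB (0 to 4135) and 833 in FW (0 to 4169). Days 4 to 8 gave 5170 in BW (1890 to 4667), 10448 in FB (7446 to 9683, 6510 with 1 probe per gene) and 11290 in FW (8357 to 10507, 6983 with 1 probe per gene). Arms were paired by day through the block, and without it days 4 to 8 gave 2875 in BW and 8897 in FB. The cause of these shifts was not tested.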
